A study of Mus musculus with 30 samples.

Results

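The cytosolic ribosomal protein genes of the mouse were followed in the small bowel *muscularis externa* (*ME*) and in the *RiboTag* pulldown of its *Sox10* lineage cells. All gene symbols made of Rpl or Rps followed by a digit or the letter p were taken, leaving out numbered pseudogenes and the *Rps6k* kinases, which gave 92 genes of the 28586 symbols in the tables. Of these, 76 were core ribosomal protein genes, 46 of the large subunit with its stalk and 30 of the small subunit. The others were 15 paralogs or retrocopy-like genes and *Rps19bp1*, which encodes a binding protein of RPS19 and not a ribosomal protein.

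Each cytosolic ribosome holds 1 large and 1 small subunit, and nearly every ribosomal protein stands in it as a single copy, so that cells make these proteins in matched amounts. Their mRNAs are among the most abundant of a cell and start with a cytosine inside a run of pyrimidines, the terminal oligopyrimidine (TOP) tract, through which the mTOR pathway and LARP1 set how strongly they are translated. RPL22 is the protein that carries the hemagglutinin (HA) tag in *RiboTag* mice, so *Rpl22* is a member of the family and the tool of the pulldown at the same time.

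Mice underwent intestinal manipulation (IM), the abdominal surgery that induces post-operative ileus, and tissue was taken after 3, 24 or 72 h (IM3h, IM24h, IM72h), beside naïve tissue. The pulldown libraries came from *Sox10-icre/ERT2* mice crossed with the *Rpl22tm1.1Psam* line, in which a tamoxifen-inducible Cre marks *Sox10*-expressing cells, and comprised 3 naïve, 4 IM3h, 4 IM24h and 4 IM72h libraries. Total RNA of the *ME* comprised 3 naïve and 3 IM3h libraries of *Gfap-cre* mice crossed with the same *Rpl22* line, and 4 IM24h and 4 IM72h libraries of the *Sox10-icre/ERT2* cross. The line and the time after surgery therefore cannot be told apart in the *ME* at IM24h and IM72h. In naïve tissue and at IM3h the fractions also differ in the line. All mice carried the *Rpl22tm1.1Psam* allele, no Cre-negative pulldown was analysed here, and the animals were adult males by the study's methods. A 4th naïve pulldown sample is labelled but only 3 naïve columns were in the tables. The numbers given to libraries below are names only, in the order of the tables.

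Library totals lay between 3010338 and 7899551 estimated counts in the pulldown and between 6603125 and 12866014 in the *ME*. A list of genes that overlap ribosomal RNA repeats or encode structural RNAs, among them *Gm42418*, *Lars2* and *Rn7sk* (the ribosomal RNA list), took 2.06 to 14.2% of the pulldown counts in naïve and IM3h tissue, 22.4 to 59.5% at IM24h and 58.2 to 80.3% at IM72h, against 16.1 to 33.5% in the naïve *ME*, 24.1 to 25.2% at IM3h, 1.35 to 6.53% at IM24h and 2.40 to 3.80% at IM72h. The median core gene had 868 to 1001 counts in the naïve pulldown and 32.0 to 230.0 at IM72h, where 2 to 12 core genes were at 0. The 10 glial markers summed to 2946 to 3847 CPM (counts relative to library size, for marker sums without the ribosomal RNA list) in the naïve pulldown, to 1164 to 1899 CPM at IM24h and 284 to 2193 CPM at IM72h, and to 139 to 161 CPM in the naïve *ME*. The 9 smooth muscle markers were still at 10730 to 15100 CPM in the naïve pulldown, beside 24356 to 27064 CPM in the naïve *ME*, and no marker of that list was at 0 in all libraries of a group. In the pulldown, the smooth muscle markers were at 3753 to 9039 CPM at IM3h and 2562 to 8575 CPM at IM24h, below all naïve libraries, and at 5178 to 14613 CPM at IM72h. The 8 proliferation markers of the pulldown went from 54.8 to 85.6 CPM in naïve tissue to 164 to 446 CPM at IM24h and 247 to 550 CPM at IM72h. The 10 neuronal markers were at 1231 to 2695 CPM in the naïve pulldown, beside 654 to 668 CPM in the naïve *ME*, and at 354 to 838 CPM in the pulldown at IM72h. The 9 macrophage markers of the pulldown overlapped between naïve tissue and each time (192 to 380 CPM naïve, 347 to 716 CPM at IM72h), and the neutrophil markers (6 of 7 measured) went from 4.44 to 12.0 CPM to 20.4 to 75.9 CPM at IM24h. The glial marker *Gfra3* was at 0 in all pulldown libraries at IM24h and IM72h, and the macrophage marker *Cd68* in all naïve and IM72h ones. These sums moved with the pulldown comparisons below, and their part in them was not tested. In the *ME*, the macrophage markers were at 243 to 281 CPM in naïve tissue, 184 to 219 CPM at IM3h, 601 to 1361 CPM at IM24h and 1647 to 1973 CPM at IM72h. The proliferation markers went from 30.1 to 46.1 CPM to 66.8 to 78.7 CPM at IM3h, 161 to 258 CPM at IM24h and 446 to 556 CPM at IM72h, and the neutrophil markers from 4.09 to 7.58 CPM to 20.1 to 31.4, 72.2 to 295 and 49.5 to 95.6 CPM. The glial markers of the *ME* reached 224 to 418 CPM at IM72h, and the neuronal markers were at 509 to 579 CPM at IM3h, below all naïve libraries. The smooth muscle markers of the *ME* were at 16658 to 19272 CPM at IM3h and 4699 to 14922 CPM at IM24h, below all naïve libraries. In the bulk *ME*, fewer cells of a type and less RNA per cell cannot be told apart.

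The start regions of 9 members that the results turn on are shown because the TOP tract lies there. They were taken from RefSeq (GRCm38.p6), 5′ to 3′ on the strand of the gene, as 35 bases before the annotated start and 25 bases from it on, with capitals for the longest run of pyrimidines that begins with C, searched only within 25 bases on either side of the start and marked where it reached at least 5 bases.
Rplp2, chr7:141447616-141447675, plus strand: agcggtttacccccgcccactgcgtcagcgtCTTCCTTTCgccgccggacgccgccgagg
Rps9, chr7:3704006-3704065, plus strand: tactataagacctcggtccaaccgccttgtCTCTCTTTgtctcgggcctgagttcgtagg
Rps18, chr17:33955641-33955700, minus strand: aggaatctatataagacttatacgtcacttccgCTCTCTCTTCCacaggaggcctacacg
Rpl28, chr7:4792930-4792989, plus strand: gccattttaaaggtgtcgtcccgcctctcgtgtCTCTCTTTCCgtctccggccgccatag
Rpl15, chr14:18270962-18271021, minus strand: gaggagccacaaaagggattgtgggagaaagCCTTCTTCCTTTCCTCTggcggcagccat
Rpl22, chr4:152325691-152325750, plus strand: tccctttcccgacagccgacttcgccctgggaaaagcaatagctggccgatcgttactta
Rpl22l1, chr3:28805473-28805532, plus strand: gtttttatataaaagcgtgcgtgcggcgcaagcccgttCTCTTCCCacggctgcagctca
Rps27, chr3:90213624-90213683, minus strand: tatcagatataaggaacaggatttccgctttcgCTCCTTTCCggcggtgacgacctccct
Rps27rt, chr9:114982715-114982774, minus strand: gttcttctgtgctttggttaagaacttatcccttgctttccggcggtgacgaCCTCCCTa

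RefSeq start windows were at hand for 56 of the 76 core genes, with 66 windows in all. A run of at least 5 pyrimidines beginning with C lay within 25 bases of the start in 77.3% of these windows and in 53.0% of the 32851 windows of all genes, and a run of at least 8 in 47.0% against 15.5%. The longest such run of *Rpl22* was 4 bases in the first of its 2 windows, whereas *Rpl15* had 17 bases and *Rps18* 11. Within 300 bases and on both strands, CGGAAG, the core of sites of ETS factors, was in 62.1% of the core windows and in 16.9% of all windows. AAGATGG, the core of YY1 sites, was in 16.7% against 6.34%, and GGGCGG, the core of SP1 sites, in 60.6% against 35.7%. *Rps27* and its retrocopy *Rps27rt* shared an unbroken run of 38 bases that began at base 2 of the first gene and at base 1 of the second. These matches describe letters in a window and not binding. The 76 core genes lay on 19 chromosomes, with 14 of them on chromosome 7 and 4 on X.

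In naïve tissue the order of the members was headed by the acidic stalk protein gene *Rplp1* in both fractions. Levels are given as CPM scaled by TMM over all libraries of a fraction, and since each transcript gives reads from its 3′ end alone, they need no correction for transcript length. In the naïve *ME* the highest core genes were *Rplp1* at 1442 ± 16.4 CPM (SD, n = 3), *Rpl41* at 942 ± 192 CPM and *Rps29* at 873 ± 184 CPM. *Rpl41* and *Rps29* did not differ beyond their spread. The lowest were *Rpl35* at 3.85 ± 1.20 CPM, *Rpl36a* at 1.94 ± 0.122 CPM and *Rps27* at 1.35 ± 0.150 CPM. In the naïve pulldown *Rplp1* stood at 835 ± 216 CPM, *Rps9* at 455 ± 36.3 CPM and *Rpl41* at 355 ± 140 CPM, and the last pair overlapped within their spread. *Rpl35* was at 3.75 ± 3.43 CPM, *Rps27* at 0.0847 ± 0.147 CPM and *Rpl36a* at 0 counts in all 3 libraries there, 3 counts being the limit that such a 0 allows per library. The 3 lowest genes were thus the same in both fractions, and *Rps27* and *Rpl36a* each have a near-identical partner gene that held nearly all counts of the pair, as given below.

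Most core members were lower in the naïve pulldown than in the naïve *ME*. Of 74 core genes tested, 48 were lower and 0 higher at an adjusted p below 0.05 (edgeR's quasi-likelihood test with Benjamini-Hochberg adjustment over all genes tested, as in every comparison below), where 12.7% of all genes tested were lower and 13.4% higher. Of these core genes, 56 had an unadjusted p below 0.05, and DESeq2 called 54 lower and 2 higher. The median core difference was -0.83 on the log2 scale, while the median of all genes was -0.01. Small subunit genes had a median of -1.06 with 22 of 29 lower, and large subunit genes a median of -0.66 with 26 of 45 lower. *Rps29*, a zinc-binding protein of the small subunit, was at 915 ± 201 CPM in the *ME* and at 149 ± 44.1 CPM in the pulldown on the joint scale of both fractions (n = 3 each), a difference of -2.62 (SE 0.27, adjusted p = 0.000408). *Rpl34* was at 398 ± 42.9 CPM and 78.9 ± 13.5 CPM, a difference of -2.34 (SE 0.18, adjusted p = 0.000119). The libraries of both fractions did not overlap for either gene. *Rpl24*, a protein of the bridge between the subunits, was the core gene whose pulldown libraries all lay above the *ME* ones, at 383 ± 121 CPM against 238 ± 11.6 CPM, and it did not pass (log2 difference 0.69, SE 0.22, adjusted p = 0.0514). Scaling by the library total without the ribosomal RNA list placed the median of all genes at 0.46 and left 24 core genes lower and 3 higher, and the core median then lay 0.82 below that of all genes. Without *ME* naïve library 1, 35 core genes were lower, and without pulldown naïve library 1, 58 were.

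**Figure D1:**
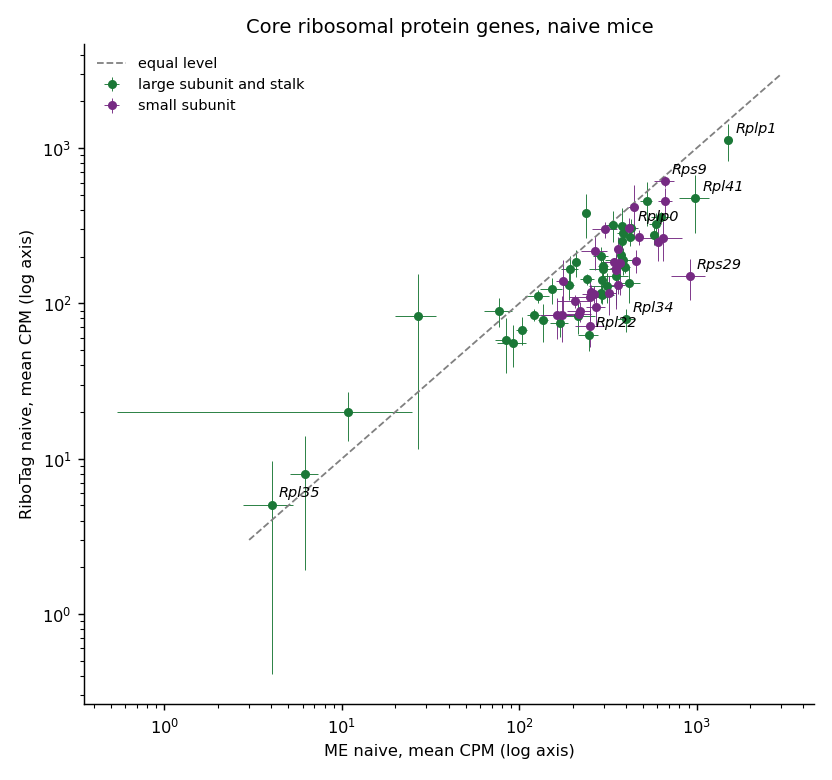
Mean level of each core ribosomal protein gene in the naïve *ME* (x axis) and the naïve *RiboTag* pulldown (y axis), both in CPM on log scales, with bars for the SD over 3 libraries each (lower bars end at 5% of the mean). Most points lie below the line of equal levels, and *Rps29* and *Rpl34* lie farthest below it among the abundant genes.

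*Rpl22*, whose protein carries the HA tag, was lower in the pulldown than in the *ME*. The naïve pulldown libraries had 35.4, 55.6 and 50.03 CPM, the IM3h libraries 60.6, 67.8, 60.5 and 36.0 CPM, the IM24h libraries 36.3, 22.1, 14.2 and 32.7 CPM and the IM72h libraries 16.6, 63.8, 10.6 and 21.5 CPM. In the *ME* the values were 263, 204 and 240 CPM in naïve tissue, 298, 259 and 302 CPM at IM3h, 207, 215, 198 and 177 CPM at IM24h and 172, 166, 173 and 183 CPM at IM72h. The 4 *ME* libraries at IM72h all lay below the 3 naïve ones, whereas the pulldown groups overlapped at all 3 times. Against the *ME* on the joint scale, *Rpl22* differed by -1.97 (SE 0.21, adjusted p = 0.000406) in naïve tissue and by -2.54 (SE 0.35, adjusted p = 0.00191) at IM24h, when both fractions came from the same line. Within the pulldown the changes against naïve tissue were 0.32 (SE 0.29, adjusted p = 0.551), -0.79 (SE 0.51, adjusted p = 0.583) and -0.76 (SE 0.96, adjusted p = 0.802) at IM3h, IM24h and IM72h. In the *ME* they were 0.33 (SE 0.12, adjusted p = 0.0594), -0.25 (SE 0.15, adjusted p = 0.253) and -0.47 (SE 0.12, adjusted p = 0.00476). The reads do not tell the tagged from the untagged transcript.

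As a share of the counts of all core members, a measure that library scaling does not touch, *Rpl22* made up 0.292 to 0.584% in the naïve pulldown and 0.929 to 1.03% in the naïve *ME*. The share in the *ME* was 0.907 to 1.06% at IM3h, 0.591 to 0.634% at IM24h and 0.377 to 0.433% at IM72h, so that the IM24h and IM72h libraries lay below all naïve ones. On the log2 scale it changed by -0.68 at IM24h and -1.28 at IM72h, more than the *Rpl22* levels given above. Such a share also falls when the other core members rise. Exact two-sided permutation tests of these shares cannot go below p = 0.1 with 3 against 3 libraries, 0.0571 with 4 against 3 and 0.0286 with 4 against 4. Over the 105 share tests run for *Rpl22* and the paralogs, 8 had an unadjusted p below 0.05 and 0 passed after adjustment (lowest adjusted p = 0.158).

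*Rpl22l1*, the paralog that can take the place of RPL22 in the ribosome, rose in the pulldown at IM3h. Its naïve pulldown levels were 43.1, 23.5 and 26.1 CPM and its IM3h levels 70.6, 81.5, 43.1 and 71.8 CPM, a log2 difference of 1.17 (SE 0.32, adjusted p = 0.0302). The lowest IM3h library reached the highest naïve one. Without naïve library 2 or 3 or IM3h library 1 or 2 the call was lost, with adjusted p between 0.0568 and 0.124. In the *ME* the differences were 0.23, 0.38 and 0.30 at IM3h, IM24h and IM72h, none past the threshold. *Rpl22l1* supplied 31.1 to 37.0% of the joint counts of *Rpl22* and *Rpl22l1* in the naïve *ME* and 46.8 to 50.4% at IM72h, while the share ran from 29.7 to 54.9% in the naïve pulldown and from 41.6 to 66.6% at IM3h.

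At IM3h, the early phase, more core genes rose than fell in both fractions with TMM scaling. In the pulldown 13 of 74 core genes rose and 4 fell, where 8.86% of all genes tested rose and 4.44% fell, and the core median was 0.35 beside -0.04 for all genes. Among them, 8 of 29 small subunit genes rose and 1 fell (median 0.49), and 5 of 45 large subunit genes rose and 3 fell (median 0.12). *Rpl8*, a protein near the peptidyl transferase centre, had 244, 188 and 202 CPM in naïve libraries and 382, 370, 462 and 671 CPM at IM3h (log2 difference 1.21, SE 0.27, adjusted p = 0.012). *Rps7*, which also binds MDM2, went from 85.5, 50.04 and 52.4 CPM to 120, 119, 165 and 151 CPM (1.21, SE 0.27, adjusted p = 0.0131). *Rps25*, a protein of the small subunit head used in internal initiation, went from 98.3, 85.7 and 80.9 CPM to 144, 175, 178 and 274 CPM (1.18, SE 0.27, adjusted p = 0.0125). The groups did not overlap for any of the 3 genes, whose calls were lost without naïve library 2 or 3 (adjusted p up to 0.0721).

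Of the core genes that fell in the pulldown at IM3h, *Rpl29* changed most, from 62.4, 47.1 and 77.3 CPM to 24.6, 25.2, 17.3 and 8.41 CPM (-1.66, SE 0.37, adjusted p = 0.0119). *Rpl28* had 136, 91.0 and 88.8 CPM and then 38.3, 47.1, 57.1 and 71.0 CPM (-0.92, SE 0.28, adjusted p = 0.0477). *Rpl31* had 167, 119 and 127 CPM and then 73.3, 59.2, 82.1 and 80.2 CPM (-0.84, SE 0.23, adjusted p = 0.0332). In all 3 large subunit genes every IM3h library lay below every naïve one. The *Rpl28* and *Rpl31* calls were each lost in 6 of 7 fits with 1 library left out, all but the one without IM3h library 4 (adjusted p up to 0.201 and 0.142), and that of *Rpl29* without naïve library 3. Leaving out a library weighed on these calls: without naïve library 2 only 1 core gene was called higher, without naïve library 3 2 were called higher and 0 lower, and without IM3h library 4 15 were called higher. With scaling by *Actb* and *Hsp90ab1*, which moved the median of all genes to -0.48, the core median was -0.12 and 0 core genes were called in either direction, and with the total without the ribosomal RNA list (median of all genes -0.27) 5 were higher and 4 lower. The core median lay 0.36 to 0.44 above that of all genes under all these scalings and filters.

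In the *ME* at IM3h, 34 of 75 core genes rose and 0 fell, where 19.3% of all genes tested rose and 13.4% fell. Here 73 of 75 differences were positive, with a median of 0.32 beside 0.00 for all genes, and both subunits had 17 genes called. *Rpl5*, part of the 5S ribonucleoprotein particle that binds MDM2, had 18.1, 28.8 and 29.9 CPM in naïve tissue and 59.3, 67.1 and 56.7 CPM at IM3h (1.31, SE 0.19, adjusted p = 0.00063). *Rpl12*, a protein at the base of the stalk, went from 5.92, 7.10 and 4.84 CPM to 10.7, 13.0 and 13.0 CPM (1.10, SE 0.24, adjusted p = 0.0058). *Rpl17*, which lines the exit of the peptide tunnel, went from 86.4, 60.7 and 72.8 CPM to 104, 104 and 117 CPM (0.61, SE 0.13, adjusted p = 0.00603). All IM3h libraries lay above the naïve ones for these genes. The smooth muscle, macrophage and neuronal markers were lower and the proliferation and neutrophil markers higher in all 3 of these libraries than in naïve tissue, as given above, and their part in the rises was not tested. The other core differences were mostly small, and the count depended on the scale: 5 core genes were higher with the total without the ribosomal RNA list (median of all genes -0.22) and 2 with *Actb* and *Hsp90ab1* (median of all genes -0.34, core median -0.02). Without naïve library 3 the count was 8, and leaving out any other library gave 15 to 24.

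The change to IM3h could be compared between the fractions directly, as the difference of both log2 changes in 1 fit. Fraction and line cannot be told apart in this fit, since the *ME* libraries came from the *Gfap-cre* cross and the pulldown from the *Sox10-icre/ERT2* cross. Of 76 core genes, 0 had a larger and 1 a smaller change in the pulldown, where 0.959% of all genes had a larger and 0.698% a smaller change. DESeq2 called 1 core gene larger and 3 smaller, and 18 had an unadjusted p below 0.05. The 1 call was lost when any 1 of 11 of the 13 libraries was left out (adjusted p up to 0.17).

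**Figure D2:**
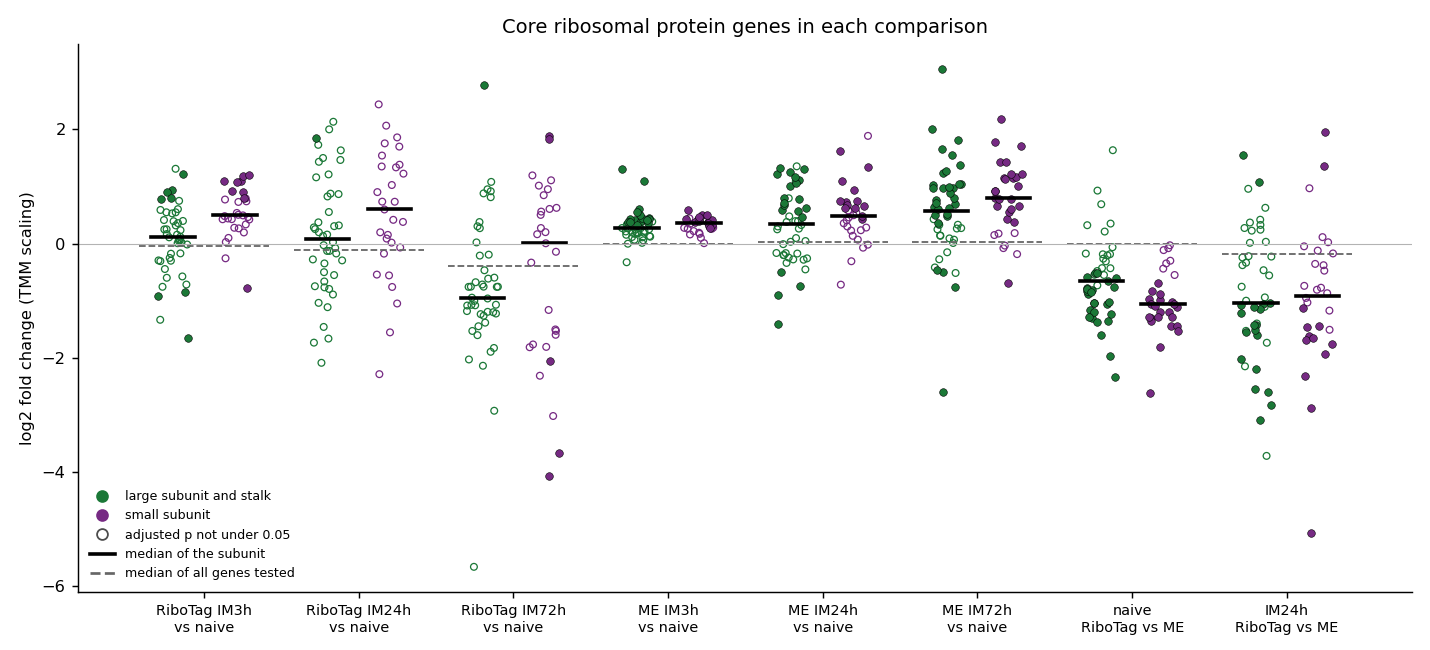
Log2 fold change with TMM scaling (y axis) of each core ribosomal protein gene in 8 comparisons (x axis), 3 times against naïve tissue in each fraction and the pulldown against the *ME* in naïve tissue and at IM24h, with green points for the large subunit and stalk, purple for the small subunit, filled for an adjusted p below 0.05, black lines for subunit medians and dashed lines for the median of all genes tested. Core medians in the *ME* are 0.32, 0.42 and 0.65 at IM3h, IM24h and IM72h, while the pulldown values spread more widely around medians of 0.35, 0.20 and -0.76.

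At IM24h the pulldown libraries differed widely among themselves and few core genes were called. Of 73 core genes 1 rose and 0 fell, where 0.366% of all genes tested rose and 0.131% fell. The core median was 0.20 beside -0.11 for all genes, at 0.60 for the small and 0.08 for the large subunit. An unadjusted p below 0.05 was found for 28 core genes, and DESeq2 called 13 higher and 2 lower. *Rpl32* had 116, 129 and 139 CPM in the naïve pulldown and 309, 421, 450 and 639 CPM at IM24h, without overlap (1.86, SE 0.37, adjusted p = 0.0471). Its call was lost in 5 of the 7 fits with 1 library left out. Pulldown libraries 2 and 3 at IM24h, with 59.5 and 58.6% of counts on the ribosomal RNA list, were the ones farthest from library 1 with 22.4%. Without library 1, 16 core genes were called higher and 1 lower, and without libraries 2 and 3 together (chosen after seeing the data) 0 and 1. With scaling by *Actb* and *Hsp90ab1* the median of all genes moved to -1.40 and the core median to -1.10, and with the total without the ribosomal RNA list the medians were -0.34 and -0.06, so the sign of the core median depends on the scale. The core median stayed 0.18 to 0.43 above that of all genes in these and the other settings and 0.19 to 0.45 above it with 1 library left out, though it was 0.08 itself without IM24h library 4 and 0.13 without naïve library 3.

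In the *ME* at IM24h, the manifestation phase, 29 of 76 core genes rose and 4 fell, where 15.6% of all genes tested rose and 13.4% fell. Their median was 0.42 beside 0.02 for all genes, with 13 of 30 small subunit genes higher and 0 lower, and 16 of 46 large subunit genes higher and 4 lower. *Rps26*, which lies at the mRNA exit channel, went from 298, 217 and 250 CPM to 892, 898, 749 and 621 CPM (1.63, SE 0.20, adjusted p = 0.000354). *Rps18*, a protein of the small subunit head, went from 281, 175 and 261 CPM to 675, 686, 640 and 430 CPM (1.34, SE 0.23, adjusted p = 0.00207). *Rpl27* went from 91.8, 69.7 and 80.6 CPM to 215, 227, 188 and 183 CPM (1.33, SE 0.16, adjusted p = 0.000386). The lowest IM24h library, number 4 for all 3 genes, still exceeded the highest naïve library.

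The largest falls in the *ME* at IM24h were in the large subunit. *Rpl28* had 288, 272 and 277 CPM in naïve tissue and 75.7, 60.7, 113 and 172 CPM at IM24h (-1.41, SE 0.31, adjusted p = 0.00682). *Rpl21* had 132, 123 and 137 CPM and then 65.6, 51.7, 80.9 and 81.4 CPM (-0.91, SE 0.18, adjusted p = 0.00458). *Rpl10a*, the protein of the L1 stalk, had 298, 296 and 259 CPM and then 158, 126, 190 and 207 CPM (-0.74, SE 0.19, adjusted p = 0.014). None of these groups overlapped, and IM24h library 4 was the one nearest to the naïve level in each gene. *Rpl28* had in the pulldown at IM24h 79.8, 22.9, 72.3 and 47.7 CPM and did not pass (-0.89, SE 0.45, adjusted p = 0.436). The *Rpl10a* call was lost without naïve library 1 (adjusted p = 0.0608). Without *ME* naïve library 3, 14 core genes were higher, without IM24h library 1 19, and without naïve library 1 or 2 17 and 16. With the total without the ribosomal RNA list (median of all genes 0.34) 47 were higher and 2 lower, and with *Actb* and *Hsp90ab1* 9 were higher and 0 lower.

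Between the fractions at IM24h, where both came from the *Sox10-icre/ERT2* cross, 28 of 75 core genes were lower and 4 higher in the pulldown, where 6.06% of all genes tested were lower and 6.06% higher. The core median was -1.0 beside -0.18 for all genes. *Rps29* again differed most, at 888 ± 203 CPM in the *ME* and 26.2 ± 19.2 CPM in the pulldown on the joint scale (n = 4 each), a difference of -5.06 (SE 0.75, adjusted p = 0.0025). *Rpl15* was at 258 ± 150 CPM and 30.2 ± 14.4 CPM (-3.08, SE 0.50, adjusted p = 0.00374), and *Rps3*, which lines the mRNA entry channel, at 401 ± 34.4 CPM and 54.1 ± 46.8 CPM (-2.88, SE 0.66, adjusted p = 0.0165). The fractions did not overlap for these 3 genes. The higher genes were few: *Rps9* stood at 2875 ± 1621 CPM in the pulldown against 746 ± 226 CPM (1.95, SE 0.51, adjusted p = 0.0282), *Rpl24* at 1462 ± 669 CPM against 498 ± 174 CPM (1.55, SE 0.43, adjusted p = 0.0351) and *Rps15* at 1177 ± 398 CPM against 458 ± 107 CPM (1.36, SE 0.34, adjusted p = 0.0244). *Rps9* and *Rpl24* overlapped between the fractions, since pulldown library 1 stood low for both, and *Rps9* and *Rpl24* lost their calls in 7 of 8 fits with 1 library left out, all but the one without that library, and *Rps15* in 4 of 8 (without pulldown library 2 or *ME* library 1, 3 or 4). With *Actb* and *Hsp90ab1* as the scale, which moved the median of all genes to -1.58, 51 core genes were lower and 0 higher, and *Rpl24* and *Rps15* had differences of -0.21 and -0.34. Without *ME* IM24h library 4, 11 core genes were lower, and without library 1, 2 or 3 of the *ME* 13, 17 and 13, and 20 were lower without pulldown library 2. The count of higher genes was 0 without pulldown library 2 or *ME* library 1, 3 or 4, and 1 without pulldown library 3 or 4 or *ME* library 2.

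At IM72h, the recovery phase, core genes of the pulldown mostly had lower values, and few calls were made. Of 74 core genes 3 rose and 3 fell, where 1.05% of all genes tested rose and 15.1% fell. The core median was -0.76 beside -0.40 for all genes, with -0.95 for the large subunit (1 of 45 higher, 0 lower) and 0.00 for the small subunit (2 of 29 higher, 3 lower). The distance of -0.36 between both medians was -0.06 without IM72h library 3 (-0.60 beside -0.54), -0.22 and -0.15 without IM72h library 1 or 4, -0.17 with pseudogene counts added, and -0.48 to -0.55 without IM72h library 2 or any naïve library, while the core median was -1.40 without IM72h library 2. *Rps9*, at the mRNA entry, had 458, 417 and 489 CPM in naïve libraries and 2412, 1529, 910 and 1538 CPM at IM72h (1.83, SE 0.37, adjusted p = 0.0127). *Rps14*, of the small subunit platform, went from 148, 133 and 97.7 CPM to 548, 732, 143 and 447 CPM (1.88, SE 0.56, adjusted p = 0.0446), and IM72h library 3 overlapped with the naïve ones. *Rps9* did not overlap and kept its call whichever library was left out, whereas *Rps14* lost it in 6 of 7 such fits.

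The largest falls among the genes called in the IM72h pulldown rest on few reads. *Rps23*, of the decoding centre, had 150, 262 and 179 CPM in naïve libraries and 1.43, 40.5, 1.92 and 4.31 CPM at IM72h, from 3, 92, 2 and 7 counts (-4.06, SE 1.13, adjusted p = 0.036). *Rps3* went from 139, 130 and 146 CPM to 1.90, 24.6, 4.80 and 12.3 CPM, from 4, 56, 5 and 20 counts (-3.67, SE 0.91, adjusted p = 0.0245). The groups were apart for both genes, and IM72h library 2 held the most reads of each. Leaving out any naïve library removed all 3 falls and left 2 rises, and leaving out IM72h library 2 gave 8 falls.

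In the *ME* at IM72h, 50 of 76 core genes rose and 5 fell, where 29.3% of all genes tested rose and 28.3% fell. Their median was 0.65 beside 0.02 for all genes. Small subunit genes had a median of 0.79 with 23 of 30 higher and 1 lower, and large subunit genes 0.56 with 27 of 46 higher and 4 lower. *Rpl5* rose further, from 18.1, 28.8 and 29.9 CPM in naïve tissue to 168, 178, 184 and 338 CPM (3.06, SE 0.29, adjusted p = 9.69e-06). *Rpl17* went from 86.4, 60.7 and 72.8 CPM to 362, 291, 298 and 261 CPM (2.01, SE 0.16, adjusted p = 3.01e-06). *Rps27* went from 10, 7 and 11 counts to 136, 57, 84 and 47 counts (2.19, SE 0.49, adjusted p = 0.00289), still a small part of its pair with *Rps27rt*. No library overlapped between the groups for these genes. Leaving out any 1 library left 47 to 51 core genes higher, and the scalings left 44 to 60. Pseudogenes named after core genes held counts equal to 23.2 to 27.2% of the core counts in the naïve *ME* and 12.9 to 17.6% at IM72h. With these counts added to the parent genes, an alternative chosen after seeing the data, 48 core genes were higher and 7 lower. The core median was then 0.51, which lay 0.49 above that of all genes.

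The falls in the *ME* at IM72h were small except in a low gene. *Rpl36a* had 15, 9 and 17 counts in naïve libraries and 5, 6, 3 and 3 at IM72h (-2.59, SE 0.44, adjusted p = 0.000468), and with pseudogene counts added to the parent gene, an alternative chosen after seeing the data, the difference was 0.17. *Rpl23a*, at the exit of the peptide tunnel, went from 182, 149 and 153 CPM to 87.8, 93.6, 81.8 and 125 CPM (-0.76, SE 0.15, adjusted p = 0.00147). *Rps19*, a gene mutated in Diamond-Blackfan anaemia, went from 258, 193 and 269 CPM to 101, 169, 135 and 203 CPM (-0.69, SE 0.21, adjusted p = 0.0164), with an overlap through IM72h library 4, and lost the call without naïve library 1 or 3. Without that library, 9 core genes were lower in place of 5. The marker sums of the *ME* given above moved with the *ME* rises, and their part in them was not tested.

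The stalk genes *Rplp0*, *Rplp1* and *Rplp2*, whose proteins recruit the elongation factors to the large subunit, had different courses. *Rplp1* had 1037, 607 and 861 CPM in the naïve pulldown, 831, 811, 908 and 1677 CPM at IM3h, 1260, 3571, 5293 and 3102 CPM at IM24h and 7260, 6994, 3549 and 4854 CPM at IM72h. In the *ME* it had 1424, 1448 and 1455 CPM in naïve tissue, 2019, 2046 and 2084 CPM at IM3h, 4124, 4718, 3220 and 2228 CPM at IM24h and 5953, 4537, 4369 and 3651 CPM at IM72h. The IM24h and IM72h libraries of both fractions all lay above the naïve ones. The log2 changes of *Rplp1* in the pulldown were 0.40 (SE 0.31, adjusted p = 0.481), 1.999 (SE 0.51, adjusted p = 0.0975) and 2.77 (SE 0.33, adjusted p = 0.00818) at IM3h, IM24h and IM72h. In the *ME* they were 0.56 (SE 0.10, adjusted p = 0.00226), 1.30 (SE 0.25, adjusted p = 0.00406) and 1.65 (SE 0.17, adjusted p = 1.6e-05). Without pulldown IM24h library 1, the IM24h change passed as well (adjusted p = 0.00942).

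*Rplp0*, the scaffold of the stalk, had 252, 194 and 235 CPM in the naïve pulldown, 264, 228, 237 and 176 CPM at IM3h, 244, 254, 231 and 331 CPM at IM24h and 179, 337, 24.005 and 63.4 CPM at IM72h, and none of these changes passed (0.05, 0.25 and -0.61). In the *ME* it went from 446, 369 and 402 CPM to 537, 520 and 600 CPM at IM3h, 929, 926, 976 and 828 CPM at IM24h and 827, 839, 773 and 872 CPM at IM72h, and all 3 changes passed (0.49, 1.17 and 0.998). *Rplp2*, the partner of RPLP1, had 287, 209 and 234 CPM in the naïve pulldown, 370, 365, 402 and 485 CPM at IM3h, 454, 670, 920 and 926 CPM at IM24h and 444, 692, 265 and 473 CPM at IM72h. Of the pulldown groups, IM3h and IM24h lay above the naïve libraries without overlap, and the IM3h change passed (0.79, SE 0.23, adjusted p = 0.0414) while those at IM24h (1.63, SE 0.38, adjusted p = 0.0743) and IM72h (0.95, SE 0.43, adjusted p = 0.22) did not. The IM3h call was lost in 5 of 7 fits with 1 library left out, all but those without IM3h library 1 or 4 (adjusted p up to 0.15). In the *ME*, *Rplp2* changed by 0.41 (adjusted p = 0.0182), 0.39 (adjusted p = 0.14) and 0.62 (adjusted p = 0.0019), with the IM3h call lost without naïve library 1 or 3 or IM3h library 2. The small changes of *Rplp0* and *Rplp2* at IM3h in the *ME* did not pass with *Actb* and *Hsp90ab1* as the scale, nor did that of *Rplp1*.

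**Figure D3:**
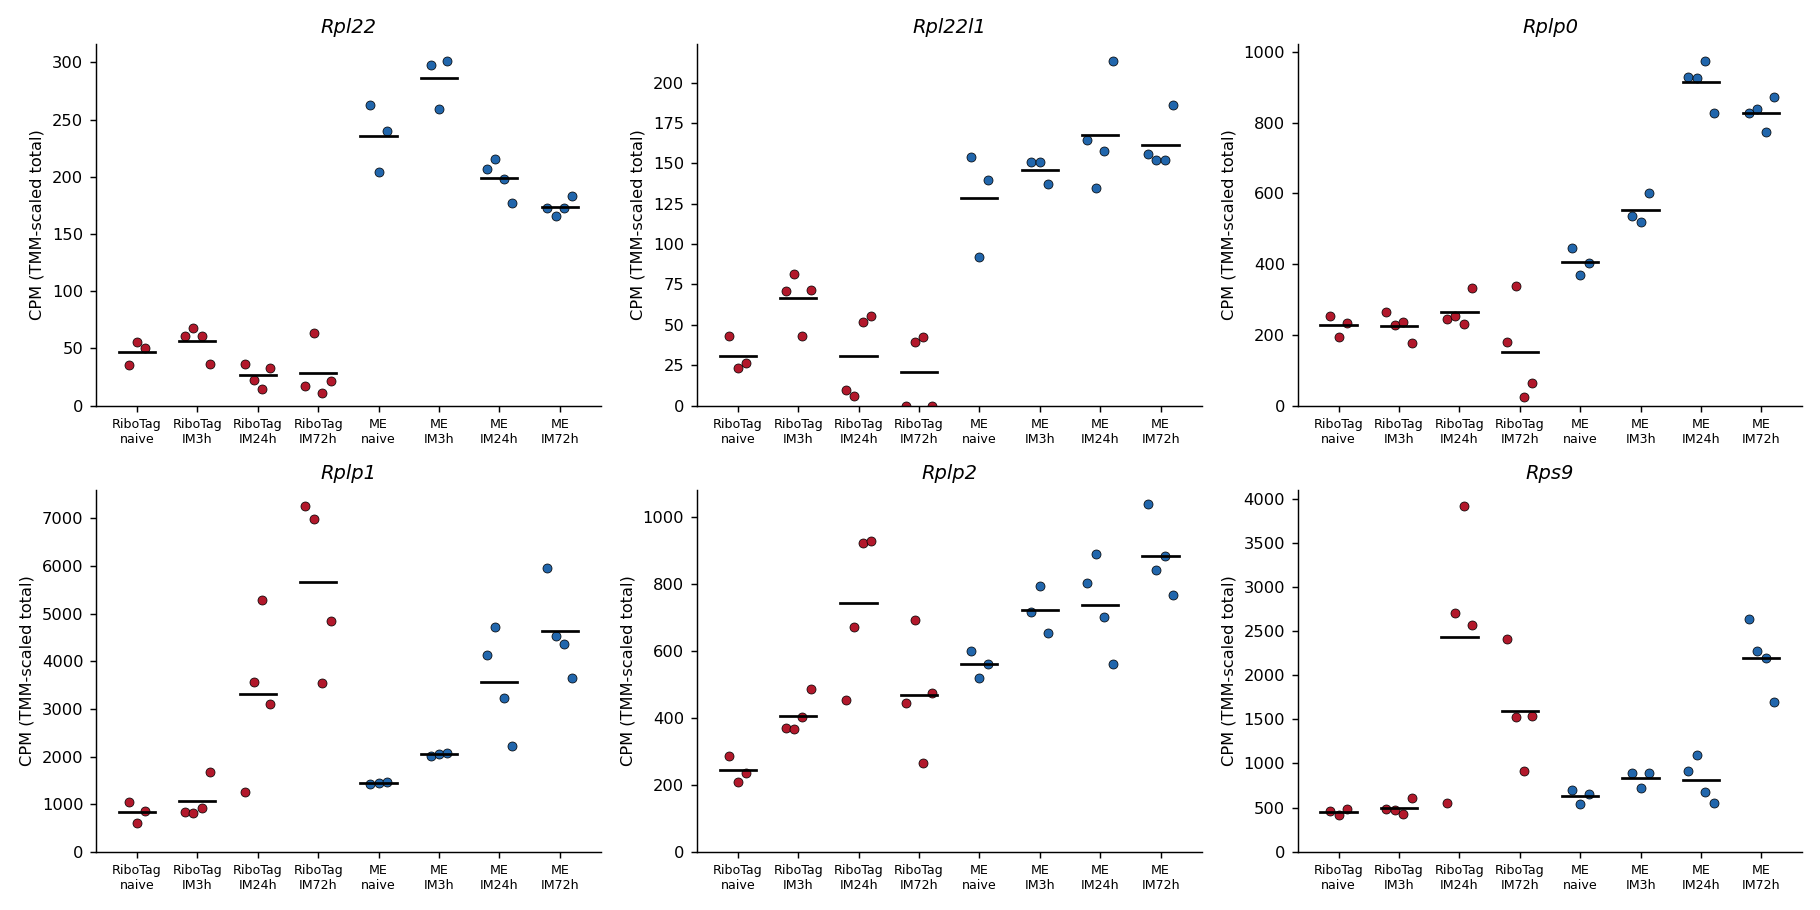
Level in CPM (y axis, linear, from 0) of *Rpl22*, *Rpl22l1*, *Rplp0*, *Rplp1*, *Rplp2* and *Rps9* in every library of the *RiboTag* pulldown and the *ME* by time (x axis), with dots for libraries and black lines for group means. *Rplp1* reached 3549 to 7260 CPM in the pulldown at IM72h, whereas *Rpl22* stayed at 10.6 to 67.8 CPM in the pulldown and at 166 to 302 CPM in the *ME*.

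The members were also summed, as a share of all counts without the ribosomal RNA list. The core share was 1.84 to 2.25% in the naïve pulldown, 2.04 to 2.40% at IM3h, 2.42 to 3.93% at IM24h and 1.33 to 2.99% at IM72h. In the *ME* it was 2.32 to 2.61% in naïve tissue, 2.63 to 2.72% at IM3h, 3.72 to 4.56% at IM24h and 5.09 to 5.79% at IM72h. With this total the *ME* groups were each above the one before without overlap, whereas the pulldown at IM72h spanned the naïve range. The step of the *ME* from naïve tissue to IM3h did not hold with other totals. As a share of all counts, the groups overlapped at 1.54 to 2.14% and 1.99 to 2.07%. Without the ribosomal RNA list and *Rplp1* they overlapped at 2.17 to 2.47% and 2.45 to 2.53%. These shares are descriptions of a chosen gene set and carry no test.

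A growing part of the sum came from few genes, *Rplp1* among them. The 5 highest core genes of each library supplied 19.2 to 23.3% of the core counts in the naïve pulldown and 50.3 to 63.6% at IM72h. *Rplp1* supplied 6.38 to 8.55% of the core counts in the naïve pulldown, 6.60 to 10.5% at IM3h, 10.2 to 23.2% at IM24h and 33.0 to 42.3% at IM72h. In the *ME* its part was 5.60 to 6.60%, 7.03 to 7.16%, 7.73 to 13.9% and 8.64 to 13.0% at the same times. Without *Rplp1*, an alternative chosen after seeing the data, the core share of the pulldown was 1.72 to 2.06% in naïve tissue and 0.772 to 2.02% at IM72h, so that every IM72h library lay at or under the highest naïve one, while the *ME* still went from 2.17 to 2.47% to 4.56 to 5.07%. The pulldown groups with a large *Rplp1* part were also those with 22.4 to 59.5% and 58.2 to 80.3% of counts on the ribosomal RNA list, whose part in it was not tested.

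The ratio of both subunits depended on whether *Rplp1* was counted. With it, counts of large subunit genes were 1.47 to 1.61 times those of small subunit genes in the naïve pulldown, 1.19 to 1.47 times at IM3h, 1.21 to 1.56 times at IM24h and 1.60 to 1.95 times at IM72h, and all 3 groups overlapped with the naïve one. Counts of large subunit genes without *Rplp1* were 1.31 to 1.39 times those of small subunit genes in the naïve pulldown, 1.04 to 1.21 times at IM3h, 0.765 to 1.30 times at IM24h and 0.634 to 0.799 times at IM72h. Without *Rplp1*, the libraries of all 3 times lay below the naïve ones. *Rps9*, the highest small subunit gene of the naïve pulldown, stayed in this ratio. It had 417 to 489 CPM in naïve libraries and 910 to 2412 CPM at IM72h, and its part in the lower ratio was not tested. In the *ME* the ratio without *Rplp1* was 1.13 to 1.25 in naïve tissue, 1.15 to 1.17 at IM3h, 0.980 to 1.07 at IM24h and 0.982 to 1.14 at IM72h.

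**Figure D4:**
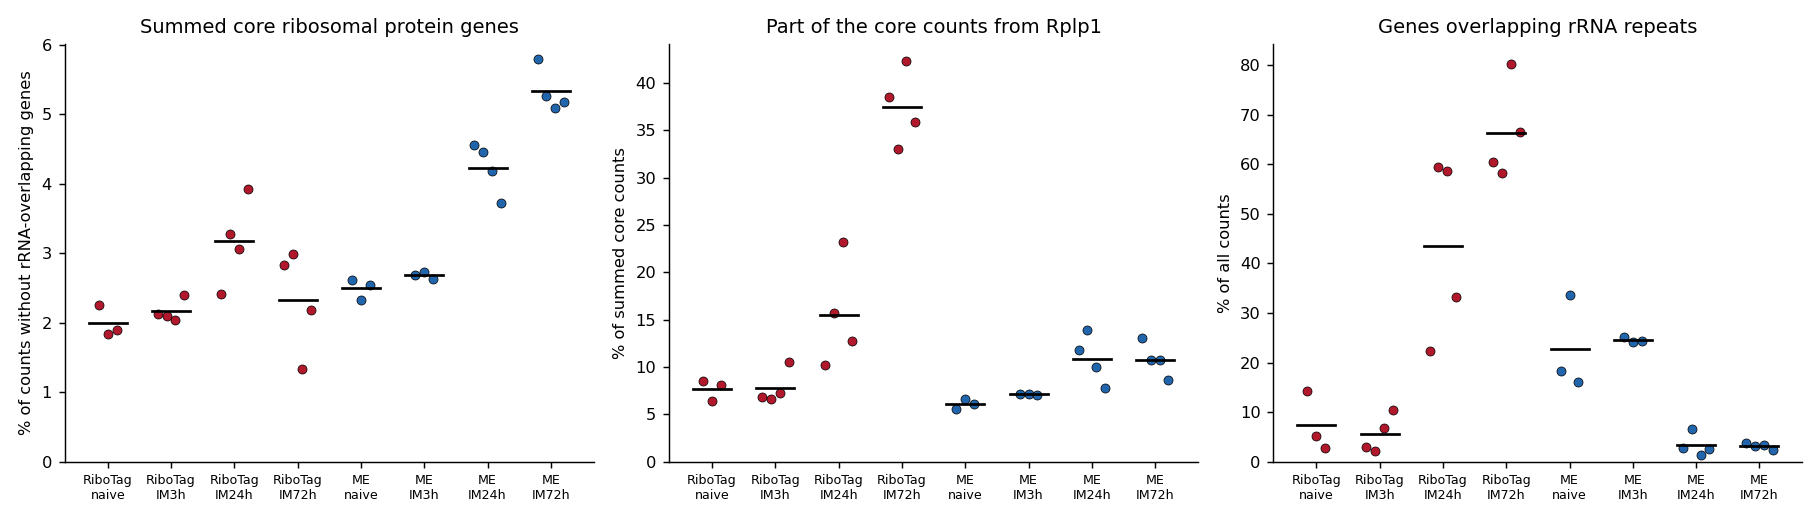
Per library and group, the percent of counts without the ribosomal RNA list that came from core ribosomal protein genes, the percent of the core counts that came from *Rplp1*, and the percent of all counts on the ribosomal RNA list, 1 dot per library with a black line for the group mean. The core share of the *ME* is 2.32 to 2.61% in naïve tissue and 5.09 to 5.79% at IM72h. The *Rplp1* part reaches 33.0 to 42.3% in the pulldown at IM72h, where the ribosomal RNA list holds 58.2 to 80.3%.

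The 15 paralogs and like genes include copies whose 3′ ends are nearly identical to a core gene, and how the reads of such a pair were split between its members is uncertain. Of those tested, 2 of 10 rose in the pulldown at IM3h, 0 of 9 and 0 of 8 were called at IM24h and IM72h (3 and 2 at an unadjusted p below 0.05), and in the *ME* 3 of 11 rose at IM3h, 4 of 11 rose at IM24h, and 4 of 10 rose and 4 fell at IM72h. Over all genes tested in the pulldown, 8.86, 0.366 and 1.05% rose and 4.44, 0.131 and 15.1% fell at IM3h, IM24h and IM72h. Over all those tested in the *ME*, 19.3, 15.6 and 29.3% rose and 13.4, 13.4 and 28.3% fell. *Rpl36al*, an expressed partner of *Rpl36a*, rose in the *ME* from 159, 129 and 164 CPM to 201, 171 and 215 CPM at IM3h, 438, 409, 369 and 269 CPM at IM24h and 387, 365, 349 and 361 CPM at IM72h (0.43, 1.30 and 1.25, adjusted p = 0.0283, 0.00112 and 1.12e-05). All *ME* libraries after surgery lay above the naïve ones, and in the pulldown *Rpl36al* rose at IM3h from 104, 84.4 and 98.0 CPM to 166, 142, 129 and 236 CPM (0.87, adjusted p = 0.0442). Both IM3h calls were fragile, that of the *ME* being lost in 5 of 6 fits with 1 library left out (all but IM3h library 2, adjusted p up to 0.0893) and that of the pulldown in 6 of 7 (all but IM3h library 4, adjusted p up to 0.148). It held at least 97.8% of the counts of its pair with *Rpl36a* in every *ME* library, so that the fall of *Rpl36a* at IM72h concerned a minor part of the pair.

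*Rps27rt*, the copy on chromosome 9 whose start shares 38 bases with *Rps27*, held at least 95.2% of the counts of its pair in the *ME*. It had 460, 385 and 477 CPM in the naïve *ME* and 225, 235, 241 and 339 CPM at IM72h (-0.79, adjusted p = 0.00135), while *Rps27* rose. The gene with nearly all counts of the pair was thus lower at IM72h and its minor partner higher. *Rpl37rt* made up 74.1 to 77.8% of the counts of *Rpl37* and *Rpl37rt* in the naïve *ME* and 44.5 to 58.8% at IM72h, when its level had fallen (-1.11, adjusted p = 0.00368). Both copies were also lower in the naïve pulldown than in the naïve *ME* (*Rps27rt* -1.26, *Rpl37rt* -1.85). *Rps27l*, a p53-responsive paralog of *Rps27*, rose in the *ME* at IM24h (1.19, adjusted p = 0.00254), and *Rpl7l1*, a protein of pre-ribosomes, rose there at all 3 times (0.69, 0.93 and 1.03). *Rps12l1* rose in the *ME* by 0.57 (adjusted p = 0.0279), 0.51 (adjusted p = 0.0435) and 1.03 (adjusted p = 0.000175). Its IM3h call was lost in 4 of 6 fits with 1 library left out (all but naïve library 3 and IM3h library 2) and its IM24h call in 6 of 7 (all but IM24h library 4). *Rps4l* rose by 0.80 at IM72h (adjusted p = 0.00567).

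The largest falls among the paralogs in the *ME* at IM72h were those of *Rps3a2* and *Rps3a3*, copies of *Rps3a1* with few reads. *Rps3a3* had 54, 29 and 81 counts in naïve libraries and 13, 19, 7 and 12 counts at IM72h (-3.01, SE 0.35, adjusted p = 3.66e-05), with lower CPM in every IM72h library than in any naïve one. *Rps3a2* had 187, 0 and 197 counts and then 0, 32, 66 and 2 counts (-3.12, SE 1.04, adjusted p = 0.0241). The groups of *Rps3a2* overlapped, and its call was lost without naïve library 1 or 3 (adjusted p up to 0.0866).

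**Figure D5:**
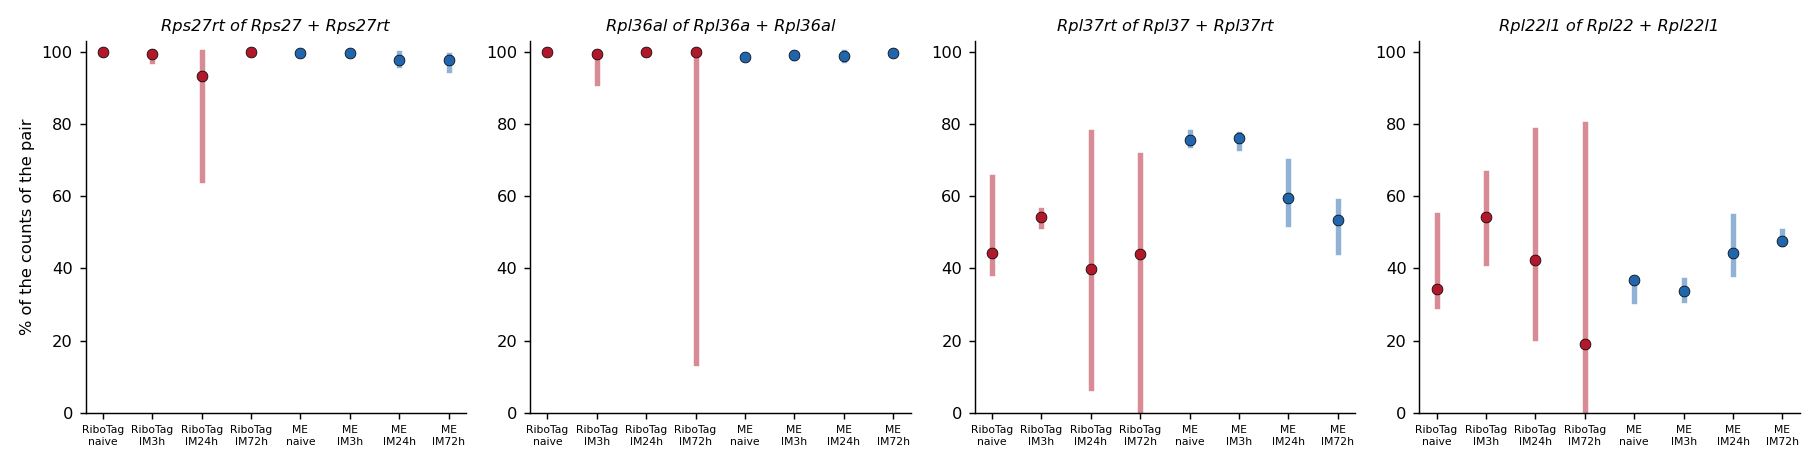
Percent of the joint counts of a gene and its paralog or copy that the latter held, by group (dots are medians over 3 or 4 libraries, bars run from the lowest to the highest library). *Rps27rt* and *Rpl36al* hold nearly all counts of their pairs in the *ME*, the part of *Rpl37rt* falls from 74.1 to 77.8% to 44.5 to 58.8% in the *ME* and that of *Rpl22l1* rises from 31.1 to 37.0% to 46.8 to 50.4%.

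*Rps19bp1*, the one symbol taken by the rule that is no ribosomal protein and encodes a nucleolar binding protein of RPS19, rose at IM3h in the pulldown (1.72, adjusted p = 0.0102) and in the *ME* (1.27, adjusted p = 0.000221), and fell by 0.52 on the log2 scale in the *ME* at IM72h (adjusted p = 0.0221). The pulldown call was lost without naïve library 3 (adjusted p = 0.0535), and the *ME* call at IM72h without naïve library 3 or IM72h library 3 (adjusted p up to 0.12).

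Of the ribosomal proteins under other symbols, *Rack1*, a scaffold protein of the small subunit, rose in the pulldown at IM3h (1.06, adjusted p = 0.0125) and in the *ME* at all 3 times (0.71, 1.33 and 1.53). *Rpsa* rose in the pulldown at IM3h (1.20, adjusted p = 0.0381) and in the *ME* (0.34, 0.75 and 1.40), and *Fau*, which encodes RPS30 behind a ubiquitin-like domain, in the *ME* at IM72h (0.88, adjusted p = 0.000384). The pulldown calls were lost without naïve library 2 or 3, and for *Rpsa* also without IM3h library 2 or 3. The *ME* calls of *Rpsa* were lost at IM3h without naïve library 1 or 3 or IM3h library 1 or 2 (adjusted p up to 0.177), and at IM24h without naïve library 1 or 3 (adjusted p up to 0.0682).

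Of the 14 elongation factors and other genes with TOP mRNAs, 9 rose and 0 fell in the *ME* at IM3h, 4 rose and 0 fell at IM24h, and 8 rose and 3 fell at IM72h, with medians of 0.42, 0.18 and 0.43, where 19.3, 15.6 and 29.3% of all genes tested rose and 13.4, 13.4 and 28.3% fell. In the pulldown 3 rose at IM3h, 1 at IM24h and 0 at IM72h, beside 8.86, 0.366 and 1.05% of all genes. Of the 4 *ME* calls at IM24h, those of *Btf3*, *Npm1* and *Tpt1* were lost without naïve library 2 or 3, which left *Pabpc1*, and the pulldown call of *Pabpc1* at IM24h was lost without any naïve library or IM24h library 2 or 4 (adjusted p up to 0.294). *Btf3* was also lost without naïve library 1 or IM24h library 1, *Tpt1* without naïve library 1 and *Npm1* without IM24h library 3. *Npm1*, a nucleolar chaperone of ribosome assembly, rose by 1.89 in the pulldown and 0.92 in the *ME* at IM3h, and *Pabpc1*, the cytoplasmic poly(A) binding protein, by 1.09 (lost without pulldown naïve library 2, adjusted p = 0.0503) and 1.10. Between the naïve fractions 9 of 14 were lower in the pulldown and 1 higher, beside 12.7 and 13.4% of all genes, among them *Eef1b2* (-1.82) and *Eef1a1* (-1.42), the nucleotide exchange subunit and the main form of elongation factor 1.

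Of the 7 regulators of TOP mRNAs, 2 rose and 1 fell in the pulldown at IM3h, 0 changed at IM24h (0 also at an unadjusted p under 0.05, edgeR) and 0 rose and 1 fell at IM72h, while in the *ME* 3 rose and 0 fell at IM3h, 2 rose and 0 fell at IM24h, and 1 rose and 2 fell at IM72h. Of all genes tested in the pulldown, 8.86, 0.366 and 1.05% rose and 4.44, 0.131 and 15.1% fell at IM3h, IM24h and IM72h. Of all those tested in the *ME*, 19.3, 15.6 and 29.3% rose and 13.4, 13.4 and 28.3% fell. *Larp4*, a poly(A) binding protein that stabilises such mRNAs, rose by 1.40 in the pulldown and 1.31 in the *ME* at IM3h, and *Larp1* by 0.65 in the *ME*. The *Larp4* call in the pulldown was lost in 4 of 7 fits, those without naïve library 2 or 3 or IM3h library 2 or 3 (adjusted p up to 0.118). *Rps6kb1*, the S6 kinase, fell by 0.88 in the *ME* at IM72h. *Mtor* was at 80, 120 and 59 counts in the naïve pulldown and at 0 in all 4 IM72h libraries, which was at least 2.41 lower on the log2 scale when taken against 3 counts per library. This call was lost without naïve library 3 (adjusted p = 0.0809). *Mtor* had 149 to 433 counts in the *ME* at IM72h (-0.30, adjusted p = 0.319).

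The mitochondrial ribosomal protein genes, nuclear genes that serve another ribosome, are given for comparison. Of those tested, 4 of 80 rose and 12 fell in the *ME* at IM3h (median -0.15), 14 rose and 15 fell at IM24h (median 0.05), and 21 rose and 23 fell at IM72h (median -0.01), beside 19.3, 15.6 and 29.3% of all genes that rose and 13.4, 13.4 and 28.3% that fell. In the pulldown 2 of 80 rose and 4 fell at IM3h (median -0.40), 0 of 79 were called at IM24h, with 5 at an unadjusted p below 0.05 (median -0.50), and 0 of 78 rose and 9 fell at IM72h (median -0.99), beside 8.86, 0.366 and 1.05% of all genes that rose and 4.44, 0.131 and 15.1% that fell. Between the naïve fractions 3 of 80 were higher and 19 lower in the pulldown (median -0.61), beside 13.4 and 12.7% of all genes. All comparisons of a fraction with its naïve libraries share these 3 libraries, and the values at the 3 times are set side by side for that reason alone.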

How the data were processed

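RNA of the *ME* and RNA of the *RiboTag* pulldown was sequenced from the 3′ end (QuantSeq). The authors trimmed reads (cutadapt), aligned them with STAR to mm10 and quantified genes and transcripts in Partek Flow, and the deposited tables hold estimated counts, of which 31.0 to 67.0% were not whole. Transcripts were summed by symbol, and counts were rounded. The columns match a group but no single sample, 0 columns were left unmapped, and the 3 naïve pulldown libraries are the same in all pulldown tables. The tables list only features with at least 10 counts in total.

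Each comparison was fitted on its own libraries with edgeR 4.0.16 (quasi-likelihood test, TMM scaling, filterByExpr, R 4.3.3), and Benjamini-Hochberg adjustment ran over all genes tested. A call is an adjusted p below 0.05. The script was tested on simulated data. Alternatives were DESeq2 1.42.0, scaling by the total without the ribosomal RNA list or by *Actb* and *Hsp90ab1*, no filter, the *ME* transcript table, the study's own call (unadjusted p below 0.05 and more than 2-fold), and leaving out each library. Named genes were *Rpl22*, *Rpl22l1*, the stalk genes, paralogs, genes under other symbols, the 3 largest rises and falls per comparison, the 3 highest and lowest naïve levels, and up to 4 called partners per list. *Rpl24* and *Rps9* at other times were named after their values were seen. The members and lists were chosen with earlier results of these data known, and *Rpl32l*, *Rpl37rt*, *Rpl6l*, *Rps12l1*, *Rps3a2* and *Rps3a3* joined the paralogs after the symbols were read. The study counts its sequencing replicates as animals, but the columns could not be matched to single samples. Some genes that the rule names are not reported here.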

Additional observations from a re-analysis of the deposited data

Results flagged for a closer look

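In groups of 4 libraries, a library was marked where its gap to the nearest other one took more than Dixon's 95% critical share of the group's range. This was so in 8 of the 70 groups of values tested, and chance alone gives about 5% of groups.

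In the pulldown, *Rplp1* reached 1677 CPM in IM3h library 4, with 811 to 908 CPM in the other libraries. *Rps12l1* had 46.8 CPM in IM24h library 4, against 16.5 to 17.7 CPM. IM72h library 2 stood apart in 3 genes, with 115 CPM for *Rpl37rt* (others 0 to 14.7 CPM), 43.1 CPM for *Rpl7l1* (others 0 to 0.616 CPM) and 94.1 CPM for *Rps27rt* (others 19.7 to 24.97 CPM).

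In the *ME*, library 4 stood apart in 3 cases. *Rps12l1* had 172 CPM in IM24h library 4 (others 215 to 220 CPM), and in IM72h library 4 *Rpl22l1* had 186 CPM (others 152 to 156 CPM) and *Rps27rt* 339 CPM (others 225 to 241 CPM).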

How the results depend on the processing

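No paired analysis was possible because the columns of the tables carry no replicate number that matches a sample label. The counts of core genes higher and lower depended on the scale, the filter and the tool as follows, and the cause was not tested. In the pulldown at IM3h, 13 higher became 5 with the total without the ribosomal RNA list, 0 with *Actb* and *Hsp90ab1* and 7 by the study's own call, and 4 lower became 0 with *Actb* and *Hsp90ab1* and 2 by the study's call. In the pulldown at IM24h, 1 higher became 13 with DESeq2, 8 without the filter, 20 by the study's call and 0 with either other scaling or without IM24h libraries 2 and 3, and 0 lower became 2 with DESeq2, 1 without the filter, 7 by the study's call and 1 without those libraries. At IM72h, 3 higher became 1 with *Actb* and *Hsp90ab1* or no filter and 5 by the study's call, and 3 lower became 5 with DESeq2, 8 with *Actb* and *Hsp90ab1*, 0 without the filter and 7 by the study's call.

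In the *ME* at IM3h, 34 higher became 5 and 2 with the 2 scalings and 2 by the study's call. At IM24h, 29 higher became 47, 9 and 13 in the same order, and 4 lower 2, 0 and 1. At IM72h, 50 higher became 23 and 5 lower became 1 by the study's call, and 2 were lower with the total without the ribosomal RNA list. Between naïve fractions, 0 higher became 2 with DESeq2, 3 with that total and 1 by the study's call, and 48 lower became 24 with that total and 31 by the study's call. At IM24h, 4 higher became 0 with *Actb* and *Hsp90ab1* or without pulldown libraries 2 and 3, and 28 lower became 51 with *Actb* and *Hsp90ab1*. For the difference of changes at IM3h, 0 larger became 1 with DESeq2 and 3 by the study's call, and 1 smaller became 3 with DESeq2, 2 with the total without the ribosomal RNA list, 3 by the study's call and 0 with *Actb* and *Hsp90ab1* or no filter.

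Leaving out each library in turn gave 1 to 15, 0 to 16 and 2 to 4 core genes higher in the pulldown at IM3h, IM24h and IM72h, and 0 to 4, 0 to 1 and 0 to 8 lower. In the *ME* it gave 8 to 24, 14 to 35 and 47 to 51 higher, and 0, 2 to 6 and 3 to 9 lower. Between fractions it gave 0 to 2 higher and 35 to 58 lower in naïve tissue and 0 to 4 higher and 11 to 33 lower at IM24h, and for the difference of changes 0 to 1 larger and 0 to 3 smaller.

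Changes of sign were counted only for values called in the main or the alternative fit. Such a change was found for *Rpl36a* in the *ME* at IM72h with pseudogene counts added (0.17). Between fractions at IM24h with *Actb* and *Hsp90ab1*, it was found for *Rplp1* (-1.55), *Fau* (-1.66), *Rpl24* (-0.21), *Rps15* (-0.34) and *Eef1d* (-0.13). The median core share of all counts moved, on leaving the ribosomal RNA list out of the total, from 1.60 to 3.17% in the pulldown at IM24h, from 0.926 to 2.503% at IM72h, and in the *ME* from 2.13 to 2.55% in naïve tissue and from 2.01 to 2.69% at IM3h. Without *Rplp1* as well it was 1.74% in the naïve pulldown (1.84% of all counts), 2.57% at IM24h and 1.58% at IM72h, and 2.504% and 4.74% in the *ME* at IM3h and IM72h (5.08% of all counts).

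With 1 library left out, 1544 values of named genes stayed on their side of the threshold, and 170 lost and 26 gained the call. Of the values called in either fit, 0 changed sign. Pulldown libraries at IM72h, with a median core gene at 32.0 to 230.0 counts, limit what can be told there.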
